A study of Mus musculus with 12 samples.

Results

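The adenosine and ATP signalling genes described here were 10 of the 20491 genes tested: the adenosine receptors Adora2a, Adora2b and Adora3, the ATP-gated channels P2rx4 and P2rx7, the nucleotide receptors P2ry2 and P2ry6, and the enzymes Entpd1, Ada and Adk. A gene was taken where the gene name in the scanner files equalled the member's symbol, and the probe with the highest mean log2 signal over the 12 arrays stood for it. All 10 members were found, 15 probes in all, and the chosen probe of every member was well above background on all 12 arrays and passed the filter on dim probes.

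ATP leaves stressed or activated cells and acts at the cell surface on P2X channels and P2Y receptors. Ectonucleotidases such as CD39, the product of Entpd1, remove its phosphates stepwise, and the adenosine formed acts on P1 receptors before adenosine deaminase (Ada) or adenosine kinase (Adk) clears it. In macrophages ATP is best known as a danger signal that opens P2X7 and drives release of interleukin-1 beta, and adenosine as a brake on inflammatory cytokines through the receptors of Adora2a and Adora2b, which raise cyclic AMP.

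The study measured mRNA of mouse bone marrow-derived macrophages on 12 single-colour Agilent arrays, 3 in each of 4 groups, to follow macrophages that lose and regain their response to lipopolysaccharide (LPS), the bacterial cell wall component that activates TLR4. Recovered cells were exposed to LPS for 8 h, rested for 88 h by their descriptions (2 to 4 days in the general protocol) and exposed once more for 4 h. Tolerant cells followed the same course with a rest of only 16 h, acute cells had a single exposure of 4 h, and untreated cells had none. Marrow was from female C57BL/6 mice of 6 to 8 weeks, and cells had 7 days in L929-conditioned medium, which supplies the macrophage growth factor M-CSF. The LPS dose is not given in the labels. The 3 arrays of a group were independent experiments, but the labels do not say that the animals differed, so p-values measure the spread between these experiments. No cells that were rested without LPS, or had the first LPS alone, were analysed here, so the first exposure, the rest and the longer culture cannot be told apart in the recovered and tolerant groups.

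Between 47.8 and 55.0% of spots were well above background on an array, no spot was saturated (0 on each array), and arrays of a group correlated at 0.98 to 0.994 across genes. All 8 macrophage markers, among them Adgre1, Csf1r and Cd68, were well above background in every group. Genes in the marker lists of other cells moved with the groups. Of 7 lymphocyte markers the summed log2 signal was 12.46 to 12.67 in recovered, 12.285 to 12.55 in tolerant, 12.56 to 12.60 in acute and 12.54 to 12.73 in untreated cells. Among these Cd79b was called lower in recovered cells than in untreated (-3.86) and tolerant cells (-2.43). Cd3e and Nkg7 were not called, and Ms4a1 was not above background in any group.

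Of 7 mast cell and basophil markers the summed log2 signal was 11.33 to 11.55 in recovered, 8.88 to 9.12 in tolerant, 11.04 to 11.52 in acute and 7.67 to 7.75 in untreated cells. Hdc, which makes histamine, was called higher in each LPS group than in untreated cells, Kit was called lower in tolerant (at least 4.56-fold, not well above background there) and recovered cells (-2.26) than in untreated cells, Tpsb2 was not called, and Cpa3, Fcer1a, Mcpt4 and Mcpt8 were not well above background in any group. Of 5 fibroblast markers the sum was 8.48 to 9.17, 8.50 to 8.78, 7.54 to 8.43 and 5.92 to 6.66 in the same order of groups, where Pdgfrb was called higher in each LPS group, Col1a2 was not called, and Col1a1 and Pdgfra were not above background in any. For 5 erythroid and platelet markers it was 15.1 to 15.6, 13.5 to 14.6, 13.04 to 14.01 and 12.6 to 13.7, where Pf4 was called higher in recovered and tolerant cells than in untreated cells, and Klf1 and Itga2b were not above background in any.

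The neutrophil sum, over 6 of 7 markers on the array, was 12.7 to 12.8, 12.2 to 12.9, 12.2 to 12.7 and 12.1 to 12.7. Within it S100a8 and Camp had the same order of groups as Adora2b. Their means were 9.77 and 7.47 in recovered, 10.90 and 8.08 in tolerant, 9.09 and 6.69 in acute and 8.27 and 5.81 in untreated cells. Elane was instead lowest in tolerant cells, at 12.02, against 12.52 in recovered, 12.33 in acute and 12.34 in untreated cells, and was not called. S100a9 and Ngp were not above background in any group. The dendritic cell sum, over 5 markers, was 16.5 to 16.6, 16.4 to 16.6, 16.4 to 16.9 and 16.1 to 16.8. Within it Zbtb46 was above untreated cells by 5.34 in recovered, 4.17 in tolerant and 5.33 in acute cells, Ccr7 was called higher in tolerant cells, Siglech was not called, and Xcr1 was not above background in any group. Their part in the results was not tested, and in these bulk samples fewer cells of a type and less RNA per cell cannot be told apart.

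Replicate 3 of every group stood on its own slide with a later scan day, and replicate 1 of the untreated, acute and tolerant groups on another slide, so experiment, slide and scan day cannot be told apart for replicate 3. Recovered replicate 1 was on slide 2 with recovered replicate 2. Recovered differences given for slide 2 therefore set the mean of 2 recovered arrays against 1 array. Arrays with the same replicate number deviated together. For that reason a second limma fit, with the replicate number as a block, is given wherever it changes a call of a member, and as counts for the lists of other genes. A gene is called where its Benjamini-Hochberg adjusted p, over all 20491 genes, is under 0.05. Levels are log2 normalised signals and differences are log2 fold changes with their standard errors.

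Across the comparisons the adenosine receptor gene Adora2a was far higher in all 3 groups that ended with LPS, the related gene Adora2b was high in tolerant cells above all other groups, and the UDP receptor gene P2ry6 was low in acute and recovered cells but not in tolerant cells. P2rx7, on its brightest probe, was below untreated cells in every group given LPS. Between recovered and acute cells no member was called (0 of 10) by limma without the block, where 1.91% of all genes were called. With the block Adk and Entpd1 were called there, against 11.0% of all genes.

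**Figure D1:**
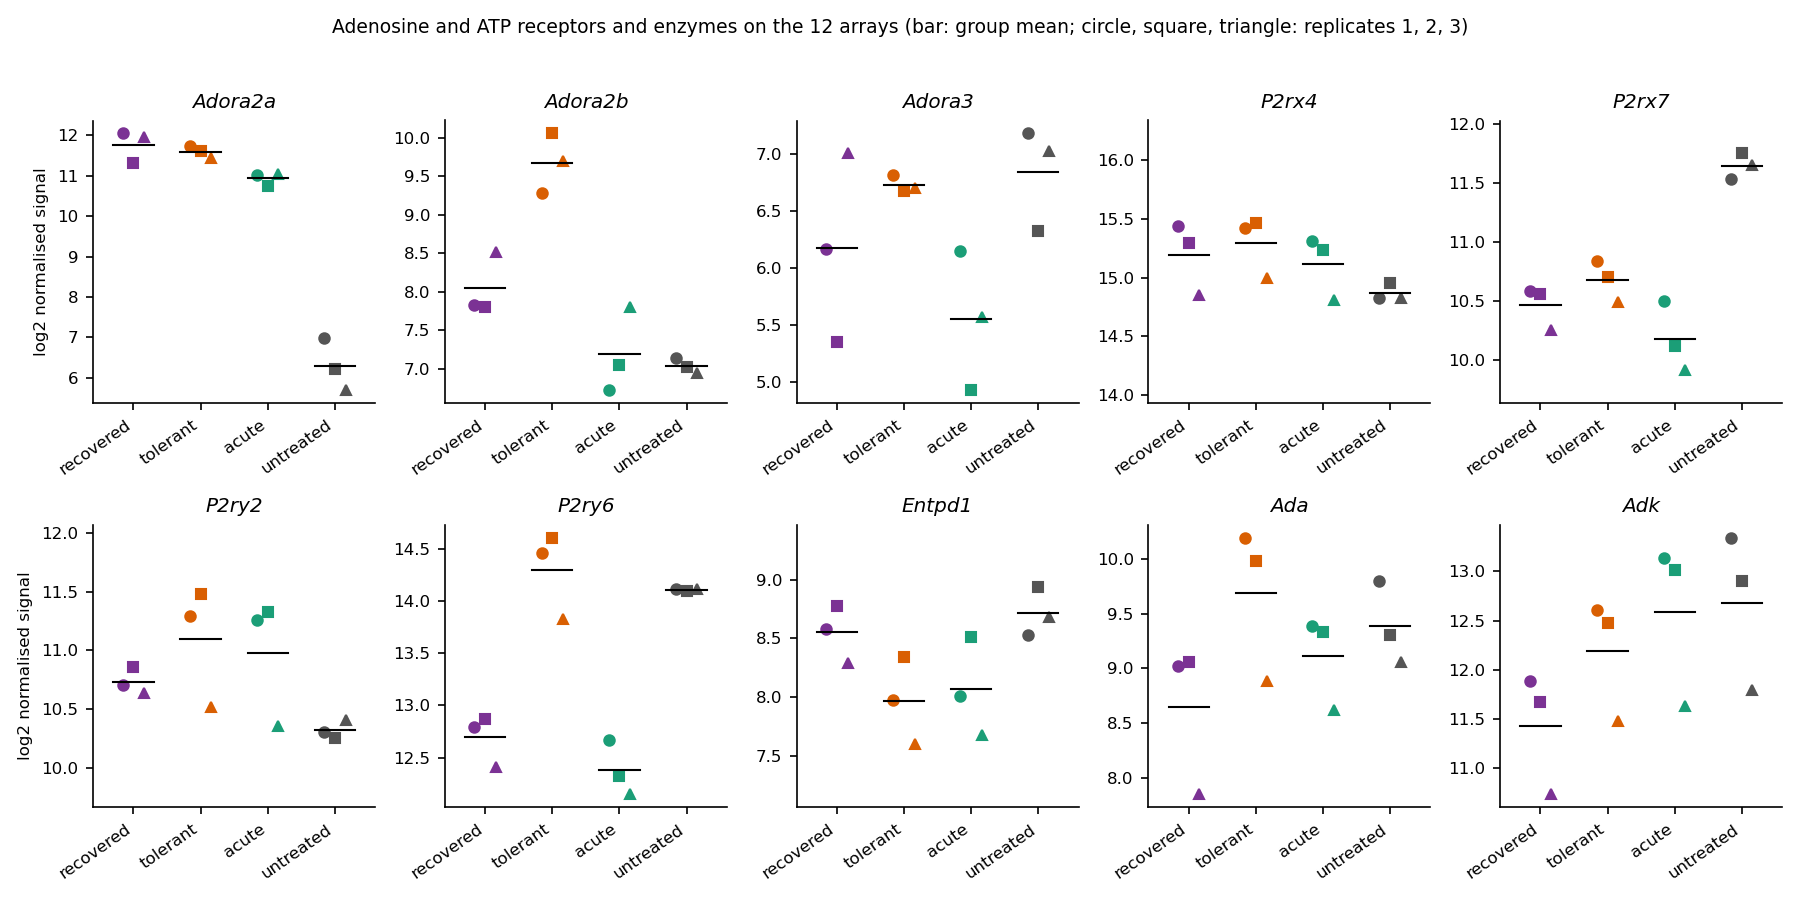
Log2 normalised signal (y axis) of the 10 members in recovered, tolerant, acute and untreated macrophages (x axis); each point is an array, its shape gives the replicate number, and the bar is the mean of 3 arrays. Adora2a sits between 10.75 and 12.05 on every array given LPS and between 5.70 and 6.98 on the untreated arrays, and only the tolerant arrays of Adora2b reach 9.28 or more.

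Adora2a encodes a high-affinity adenosine receptor that couples to Gs and raises cyclic AMP. Its log2 signals were 12.05, 11.31 and 11.96 in recovered cells, 11.73, 11.62 and 11.44 in tolerant cells, 11.02, 10.75 and 11.05 in acute cells and 6.98, 6.23 and 5.70 in untreated cells. Every array given LPS was above every untreated array by a wide margin, and the recovered and tolerant arrays overlapped while both lay above the acute arrays. Adora2a rose in acute against untreated cells by 4.64 ± 0.30 (24.9-fold, adjusted p = 4.94e-07, limma), in tolerant against untreated cells by 5.30 ± 0.30 (39.3-fold, adjusted p = 4.79e-07) and in recovered against untreated cells by 5.48 ± 0.30 (44.5-fold, adjusted p = 1.38e-07). The acute minus untreated difference was 4.04, 4.52 and 5.35 on slides 1, 2 and 3.

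The steps of Adora2a among the LPS groups were not called. Adora2a in recovered minus acute cells was 0.84 (95% interval 0.19 to 1.48, adjusted p = 0.213, limma), and in tolerant minus acute cells 0.66 (95% interval 0.01 to 1.31, adjusted p = 0.135). Neither call changed with the replicate block (adjusted p = 0.0596 and 0.0538). Recovered minus tolerant was 0.18 (95% interval -0.47 to 0.83). The probe lies on chromosome 10 at chr10:74797461-74797520 in mm9.

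Adora2b encodes a low-affinity adenosine receptor that also raises cyclic AMP. It had log2 signals of 7.84, 7.80 and 8.52 in recovered cells, 9.28, 10.06 and 9.70 in tolerant cells, 6.73, 7.05 and 7.80 in acute cells and 7.14, 7.02 and 6.95 in untreated cells. The tolerant arrays stood above all others, the recovered arrays above all untreated arrays, and the acute arrays on both sides of the untreated ones. In order of mean level the groups ran tolerant, recovered, acute and untreated.

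The tolerant level of Adora2b was higher than that of untreated cells by 2.64 ± 0.30 (6.24-fold, adjusted p = 9.32e-05, limma) and than that of acute cells by 2.48 ± 0.30 (5.59-fold, adjusted p = 0.00024). On slides 1, 2 and 3 the tolerant minus acute difference was 2.55, 3.01 and 1.89. In recovered against tolerant cells Adora2b fell by 1.63 ± 0.30 on the log2 scale (3.09-fold, adjusted p = 0.0036), yet it was above untreated cells by 1.01 ± 0.30 (2.02-fold, adjusted p = 0.0199).

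That last call rests on few arrays: its adjusted p was 0.0825 without recovered replicate 3, 0.053 without untreated replicate 2 and 0.0502 without untreated replicate 3, with differences of 0.78, 1.00 and 0.97. Acute and untreated cells were not told apart (0.16, 95% interval -0.49 to 0.81, adjusted p = 0.768), and the acute minus untreated difference changed sign between slides (-0.41, 0.03 and 0.85). Recovered minus acute was 0.86 (95% interval 0.21 to 1.51, adjusted p = 0.202).

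A second probe reads Adora2b nearer the 5′ end of the same transcript, and is printed because it shows the tolerant difference on other bases than the brightest probe. It starts at base 643 of the transcript (mm9 chr11:62078754-62078813, plus strand), against base 1723 for the first (chr11:62079834-62079893).
Adora2b, base 643: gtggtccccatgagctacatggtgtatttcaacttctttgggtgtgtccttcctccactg
Its log2 signals were 5.90, 6.60 and 7.05 in recovered cells, 7.71, 8.14 and 8.42 in tolerant cells, 5.56, 5.18 and 5.70 in acute cells and 5.71, 5.78 and 6.10 in untreated cells. Here too the tolerant arrays were above all others. The differences were 2.61 for tolerant minus acute (adjusted p over all 28056 probes kept = 0.000165, limma), 2.23 for tolerant minus untreated (adjusted p = 0.000268) and -1.57 for recovered minus tolerant (adjusted p = 0.00381). Recovered minus untreated, 0.66, was not called on this probe (adjusted p = 0.1).

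The 250 bases before the Adora2b start site (RefSeq, GRCm38.p6 chr11:62248734-62248983, plus strand) are shown because the gene was highest in tolerant cells. A link between these letters and the signals was not tested. Capitals mark GC boxes (GGGCGG on either strand).
Adora2b: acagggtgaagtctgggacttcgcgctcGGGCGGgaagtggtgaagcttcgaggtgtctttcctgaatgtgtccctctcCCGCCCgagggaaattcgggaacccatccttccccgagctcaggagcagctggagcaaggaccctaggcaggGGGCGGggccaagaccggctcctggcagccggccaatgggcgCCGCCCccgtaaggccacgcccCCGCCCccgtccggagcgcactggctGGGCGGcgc
This stretch held 6 GC boxes and had a GC content of 69.6%, and 32.7% of 32851 mouse promoter windows of 250 bases held at least 1. It held 0 matches to the NF-kB consensus (in 3.9% of all windows), to TGACG, the core of the cyclic AMP element (17.8%), to the AP-1 motif TGANTCA (6.75%), to TATAAA (12.4%) or to ACGTG, the core of the hypoxia element (16.6%), on either strand. Of the 10 members 8 had an entry in this promoter table, without Adora2a and P2ry6, and 0 of the 8 held the NF-kB consensus in this window.

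Adora3, the gene of a Gi-coupled adenosine receptor, which lowers cyclic AMP, was measured at 6.17, 5.35 and 7.00 in recovered cells, 6.81, 6.67 and 6.70 in tolerant cells, 6.15, 4.93 and 5.57 in acute cells and 7.18, 6.32 and 7.02 in untreated cells. Every acute array lay below every untreated and every tolerant array, and the recovered arrays spread over the range of the others. In acute against untreated cells Adora3 fell by 1.29 ± 0.41 on the log2 scale (2.45-fold, adjusted p = 0.0324, limma), with -1.03, -1.40 and -1.46 on slides 1, 2 and 3.

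With normexp background correction the difference was -0.70 (adjusted p = 0.0177). The call was lost without acute replicate 2 (adjusted p = 0.13), acute replicate 3 (0.0678), untreated replicate 1 (0.109) or untreated replicate 3 (0.0855), and with no filter on dim probes (0.0637). Tolerant minus acute was 1.18 ± 0.41 (2.27-fold, adjusted p = 0.0584), called with the replicate block (adjusted p = 0.00883). Tolerant minus untreated was -0.11 (95% interval -1.005 to 0.779) and recovered minus untreated -0.67 (95% interval -1.56 to 0.22). The probe is at mm9 chr3:105711212-105711271.

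P2rx7 encodes the ATP-gated channel that opens at high ATP, lets potassium out and triggers the NLRP3 inflammasome. Its log2 signals were 10.59, 10.56 and 10.25 in recovered cells, 10.84, 10.705 and 10.49 in tolerant cells, 10.50, 10.12 and 9.91 in acute cells and 11.54, 11.75 and 11.66 in untreated cells. All 9 arrays given LPS lay below the 3 untreated arrays, and the 3 LPS groups overlapped one another. P2rx7 fell by 1.47 ± 0.18 on the log2 scale in acute against untreated cells (2.77-fold, adjusted p = 7.89e-05, limma), by 0.97 ± 0.18 in tolerant against untreated cells (1.96-fold, adjusted p = 0.00269) and by 1.18 ± 0.18 in recovered against untreated cells (2.27-fold, adjusted p = 0.000343).

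On slides 1, 2 and 3 the acute minus untreated difference of P2rx7 was -1.04, -1.64 and -1.74. The difference between tolerant and acute cells, 0.50 ± 0.18 (adjusted p = 0.0653), was called with the replicate block (adjusted p = 0.0143). Recovered minus acute was 0.29 (95% interval -0.10 to 0.68) and recovered minus tolerant -0.21 (95% interval -0.61 to 0.18).

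The 3 P2rx7 probes read different accessions of the gene and did not give equal differences. The brightest starts at base 4831 (mm9 chr5:123134194-123134253). The probe for another transcript starts at base 712 (chr5:123105174-123105233) and gave 0.10 for tolerant minus untreated (adjusted p = 0.829, limma), -0.60 for acute minus untreated (adjusted p = 0.076) and -0.60 for recovered minus untreated (adjusted p = 0.0652). The remaining probe, starting at base 1125, spans a splice junction (chr5:123120528-123123413, plus strand) and is printed because its 60 bases read joined exons.
P2rx7, base 1125: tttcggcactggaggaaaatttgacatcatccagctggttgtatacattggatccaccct
On this probe acute minus untreated was -0.85 (adjusted p = 0.0366), tolerant minus untreated -0.21 (adjusted p = 0.668) and recovered minus untreated -0.57 (adjusted p = 0.132). With the mean of the probes in place of the brightest, P2rx7 was at -0.97 in acute and -0.78 in recovered minus untreated cells, both called (adjusted p = 0.00221 and 0.00721), and at -0.36 in tolerant minus untreated cells, not called (adjusted p = 0.225). The difference between the probes was not tested.

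The 250 bases before the first P2rx7 start site (RefSeq, GRCm38.p6 chr5:122643677-122643926, plus strand) are shown because the gene, on its brightest probe, was lower in each LPS group. Capitals mark the AP-1 motif TGANTCA and GC boxes, counted on both strands, and the marked stretches do not overlap.
P2rx7: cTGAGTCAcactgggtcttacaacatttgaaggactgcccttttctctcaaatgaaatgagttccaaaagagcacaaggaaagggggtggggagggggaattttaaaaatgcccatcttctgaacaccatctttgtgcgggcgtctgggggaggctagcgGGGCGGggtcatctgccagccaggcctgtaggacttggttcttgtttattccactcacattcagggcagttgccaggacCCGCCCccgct
It held 1 AP-1 match and 2 GC boxes, and its GC content was 53.6%. The window before the second P2rx7 start site, not printed, held 0 AP-1 matches and 0 GC boxes. A match is a description of these letters and not a bound site.

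**Figure D2:**
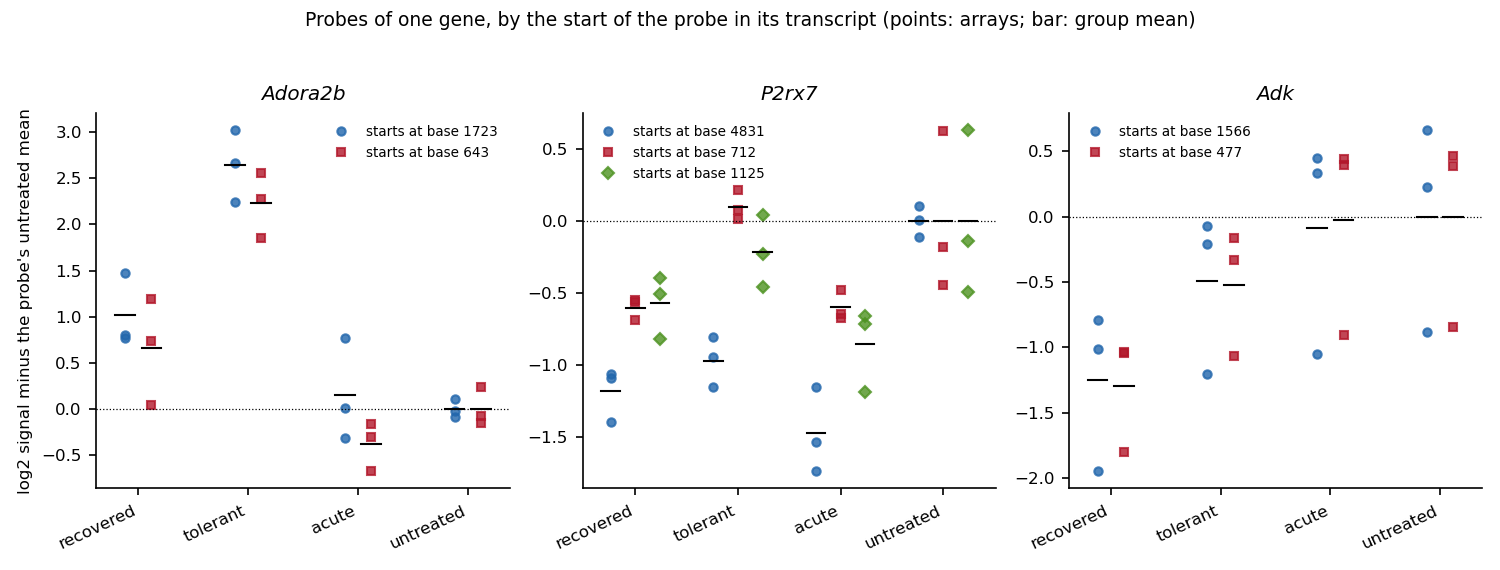
Log2 signal minus the untreated mean of the same probe (y axis) for each probe of Adora2b, P2rx7 and Adk in recovered, tolerant, acute and untreated cells (x axis); points are arrays, bars are means of 3, and the legend gives the base of the transcript at which a probe starts. Both Adora2b probes peak in tolerant cells, while the P2rx7 probes lie at -0.97, 0.10 and -0.21 in tolerant cells.

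P2rx4 encodes a more ATP-sensitive channel of the plasma membrane and lysosome. It had 15.44, 15.29 and 14.85 in recovered cells, 15.42, 15.46 and 15.00 in tolerant cells, 15.31, 15.23 and 14.81 in acute cells and 14.82, 14.95 and 14.82 in untreated cells. Replicate 3 was the lowest array of each LPS group, and only the tolerant arrays lay clear of the untreated ones. The differences from untreated cells were 0.25 (95% interval -0.19 to 0.69) in acute, 0.43 (-0.01 to 0.87) in tolerant and 0.33 (-0.12 to 0.77) in recovered cells.

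These 3 P2rx4 differences were not called by limma without the block, and with it the tolerant (adjusted p = 0.0207) and recovered (adjusted p = 0.046) differences were called. With a slide block the tolerant difference was called (adjusted p = 0.0172) and the recovered one was not (adjusted p = 0.0628). In the authors' deposited values the acute and recovered differences of P2rx4 were -0.12 and -0.04, of the other sign. The probe is at mm9 chr5:123178983-123179042, on the same chromosome as P2rx7.

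P2ry6 encodes a Gq-coupled receptor for UDP, linked to phagocytosis and chemokine production. Its signals were 12.80, 12.87 and 12.41 in recovered cells, 14.46, 14.61 and 13.83 in tolerant cells, 12.67, 12.32 and 12.15 in acute cells and 14.11, 14.10 and 14.11 in untreated cells. The recovered and acute arrays overlapped each other and lay below every tolerant and untreated array, and the tolerant arrays stood on both sides of the untreated ones. The probe (mm9 chr7:108086149-108086208, minus strand) was printed on 10 spots of each array, which were averaged.

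P2ry6 fell by 1.73 ± 0.22 on the log2 scale in acute against untreated cells (3.31-fold, adjusted p = 0.000114, limma) and by 1.41 ± 0.22 in recovered against untreated cells (2.66-fold, adjusted p = 0.00042). In tolerant cells it was higher than in acute cells by 1.92 ± 0.22 (3.77-fold, adjusted p = 0.000193). From tolerant cells the recovered cells differed by -1.60 ± 0.22 (3.04-fold lower, adjusted p = 0.000734).

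Per slide, the P2ry6 difference between tolerant and acute cells was 1.79, 2.28 and 1.68, and recovered minus tolerant was -1.77 on slide 2 and -1.42 on slide 3. Tolerant and untreated cells were not told apart (0.19, 95% interval -0.29 to 0.67, adjusted p = 0.625), and that difference was 0.35 and 0.51 on slides 1 and 2 and -0.28 on slide 3. Recovered minus acute was 0.31 (95% interval -0.17 to 0.80, adjusted p = 0.597).

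P2ry2, a Gq-coupled receptor for ATP and UTP, had 10.71, 10.86 and 10.64 in recovered cells, 11.29, 11.48 and 10.52 in tolerant cells, 11.26, 11.33 and 10.36 in acute cells and 10.31, 10.26 and 10.41 in untreated cells. In tolerant and acute cells replicates 1 and 2 were high while replicate 3 was near the untreated arrays. No P2ry2 difference was called by limma without the block (0 of 6 comparisons, 2 at an unadjusted p under 0.05). With the block, acute minus untreated at 0.66 (adjusted p = 0.0372) and tolerant minus untreated at 0.77 (adjusted p = 0.0222) were called.

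Those P2ry2 differences come from slides 1 and 2: acute minus untreated was 0.95, 1.07 and -0.05 on slides 1, 2 and 3, and tolerant minus untreated 0.99, 1.23 and 0.10. The probe is at mm9 chr7:108145553-108145612, on the same strand as that of P2ry6.

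Entpd1 encodes CD39, which turns ATP and ADP into AMP. Its signals were 8.58, 8.78 and 8.29 in recovered cells, 7.98, 8.34 and 7.60 in tolerant cells, 8.01, 8.51 and 7.68 in acute cells and 8.53, 8.93 and 8.68 in untreated cells. The tolerant and acute arrays all lay below the untreated arrays, the recovered arrays overlapped them, and replicate 2 was the highest array in each group. The differences were -0.65 ± 0.25 for acute minus untreated (adjusted p = 0.0738, limma) and -0.74 ± 0.25 for tolerant minus untreated (adjusted p = 0.0578).

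With the replicate block both were called (adjusted p = 0.00296 and 0.00203), with the standard error at 0.13. Recovered minus tolerant, 0.58, and recovered minus acute, 0.49, were not called without the block but were with it (adjusted p = 0.00718 and 0.0461), and the second was not called with a slide block (adjusted p = 0.16). Recovered minus untreated was -0.16 (95% interval -0.71 to 0.38) and was called in neither fit. The probe is at mm9 chr19:40816008-40816067.

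Adk, the kinase that returns adenosine to AMP inside the cell, had 11.89, 11.67 and 10.74 in recovered cells, 12.61, 12.47 and 11.48 in tolerant cells, 13.13, 13.02 and 11.63 in acute cells and 13.34, 12.91 and 11.80 in untreated cells. Replicate 3 was lowest in every group, and within each replicate number the recovered array was the lowest of the 4. Recovered minus untreated was -1.25 ± 0.51 (2.38-fold lower, adjusted p = 0.0811, limma). With the replicate block the standard error was 0.12 and the difference was called (adjusted p = 2.74e-05).

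The Adk differences of recovered minus acute (-1.16), recovered minus tolerant (-0.76), tolerant minus acute (-0.40) and tolerant minus untreated (-0.50) were likewise not called by limma without the block but were with it (adjusted p = 0.00141, 0.00135, 0.0234 and 0.0111). Acute minus untreated, -0.09 (95% interval -1.22 to 1.04), was called in neither fit. On slides 2 and 3 recovered minus untreated was -1.13 and -1.06. The brightest probe starts at base 1566 (mm9 chr14:22267635-22267694), and a second at base 477 (chr14:22059713-22059772, plus strand) is printed because it gave the call without the block.
Adk, base 477: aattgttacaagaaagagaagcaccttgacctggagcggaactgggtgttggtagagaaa
On that probe the signals were 9.19, 9.20 and 8.43 in recovered cells and 10.69, 10.62 and 9.39 in untreated cells, which do not overlap. Recovered minus untreated was -1.29 (adjusted p = 0.0418, limma). No other comparison was called on that probe, among them recovered minus acute at -1.27 (adjusted p = 0.219) and recovered minus tolerant at -0.77 (adjusted p = 0.239).

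Ada, which deaminates adenosine to inosine, had 9.02, 9.06 and 7.85 in recovered cells, 10.20, 9.98 and 8.88 in tolerant cells, 9.39, 9.34 and 8.61 in acute cells and 9.80, 9.30 and 9.06 in untreated cells. Replicate 3 was again the lowest array of each group. No Ada difference was called by limma without the block (0 of 6 comparisons, 1 at an unadjusted p under 0.05), and the widest was recovered minus tolerant at -1.04 ± 0.41 (adjusted p = 0.0939). With the block it was called (adjusted p = 0.0017), as were recovered minus untreated at -0.75 (adjusted p = 0.00584) and tolerant minus acute at 0.57 (adjusted p = 0.0253). The probe is at mm9 chr2:163552581-163552640.

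**Figure D3:**
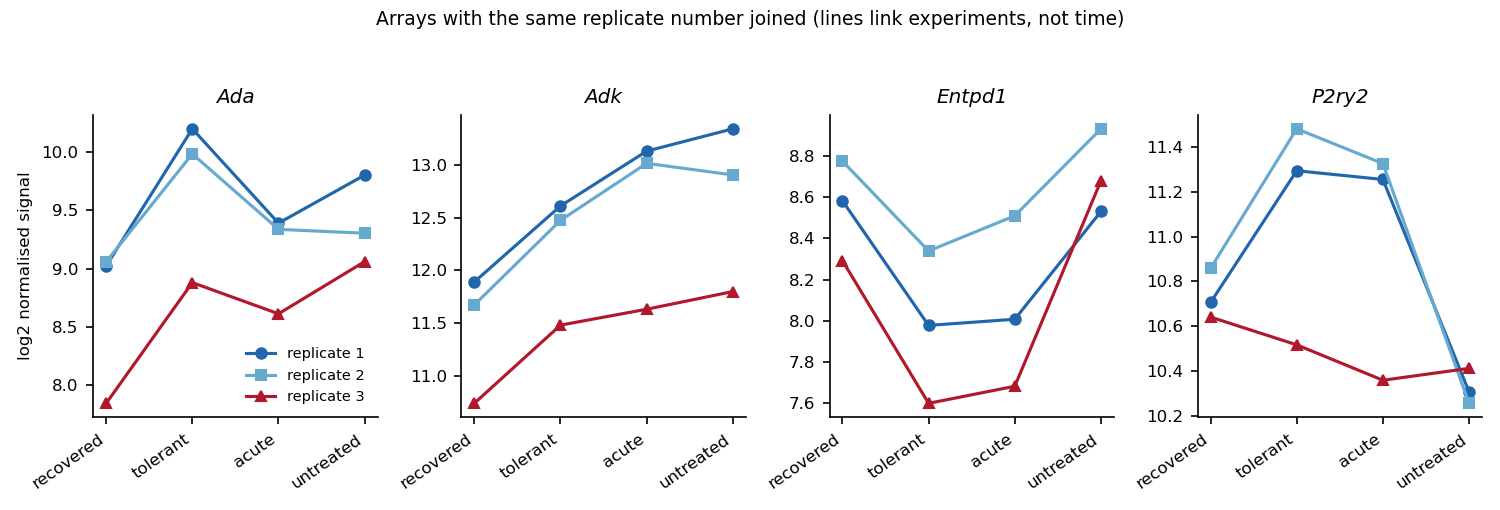
Log2 normalised signal (y axis) of Ada, Adk, Entpd1 and P2ry2 in recovered, tolerant, acute and untreated cells (x axis); each line joins the 4 arrays of a replicate number and does not stand for time. For Ada and Adk replicate 3 lies lowest in each group and the recovered array is the lowest of each line, and for P2ry2 replicate 3 does not share the high tolerant and acute levels.

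Read against all genes, the share of members called was as follows. In acute against untreated cells 4 of 10 members were called, 1 higher (Adora2a) and 3 lower (Adora3, P2rx7, P2ry6), where 29.1% of all genes tested were called (14.9% higher and 14.2% lower). With the replicate block 6 were called, against 43.8% of all genes. The median difference of the members was -0.18, that of all genes 0.04.

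For tolerant against untreated cells 3 members were called, Adora2a and Adora2b higher and P2rx7 lower, where 19.7% of all genes were called (11.6% higher, 8.06% lower). The block gave 7 members, against 37.7% of all genes, and leaving out acute replicate 3, with no block, gave 5, against 20.8%. A slide block gave 7 (39.7%), the authors' deposited values 6 (34.6%) and the first scan day alone 5 (22.4%). The members' median was 0.24 and that of all genes 0.00 (-0.004).

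Recovered against untreated cells gave 4 called members, Adora2a and Adora2b higher and P2rx7 and P2ry6 lower, where 35.4% of all genes were called (18.7% higher, 16.7% lower), and 7 with the block, against 53.0%. The median was -0.42 over the members and 0.06 over all genes. These 3 comparisons share the untreated arrays.

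Between tolerant and acute cells 2 members were called, both higher (Adora2b and P2ry6), where 22.5% of all genes were called (11.8% higher, 10.7% lower). With the block 6 were called, against 44.7%. Leaving out acute replicate 1, with no block, gave 4, against 17.1%. A slide block gave 6 (47.2%), the authors' deposited values 6 (37.5%) and normexp background correction 5 (23.0%). The median over the members was 0.54 and over all genes -0.05.

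The same pair of genes was called between recovered and tolerant cells, both lower, where 20.6% of all genes were called (10.6% higher, 9.98% lower). With the block 5 members were called, against 45.0%. The authors' deposited values gave 6 (36.1%), a slide block 5 (40.3%) and the first scan day alone 5 (19.3%). The median was -0.46 over the members and 0.07 over all genes.

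Between recovered and acute cells 0 members were called by limma, where 1.91% of all genes were called (1.34% higher, 0.571% lower). In all, 3 of 10 members had an unadjusted p under 0.05 (Adora2a, Adora2b and Adk), as did 13.8% of all genes. With the block 2 members were called, Adk and Entpd1, against 11.0% of all genes. A slide block (7.79%), the authors' deposited values (5.87%) and the first scan day alone (3.02%) each gave 1. The median was 0.30 over the members and 0.02 over all genes.

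**Figure D4:**
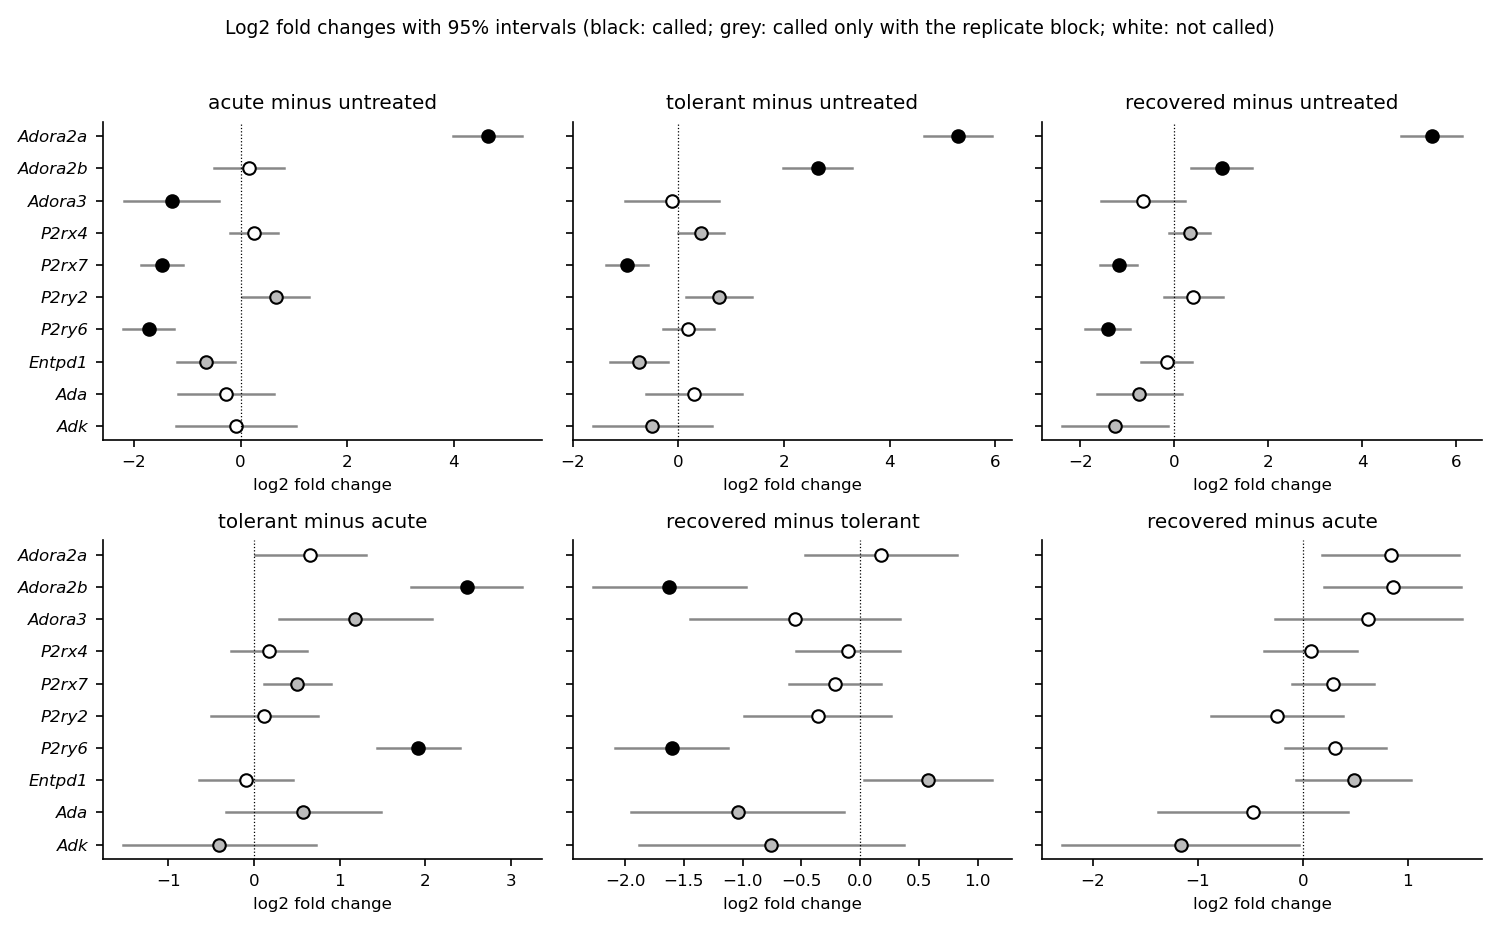
Log2 fold change (x axis) with its 95% interval for each member (y axis) in the 6 comparisons; black points were called, grey points were called with the replicate block but not without it, and white points in neither of these fits. Adora2a stands at 4.64 to 5.48 against untreated cells, and Adora2b and P2ry6 are the 2 black points in both tolerant minus acute and recovered minus tolerant.

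The other genes of the pathway were counted by list, in acute minus untreated, tolerant minus acute and recovered minus acute. Of all genes tested 14.9% were higher and 14.2% lower in acute minus untreated, and 11.8% and 10.7% in tolerant minus acute. In recovered minus acute these shares were 1.34% and 0.571%. With the block 43.8, 44.7 and 11.0% of all genes were called in these comparisons. Of 12 other P1 and P2 receptor genes 9 were measured. In acute against untreated cells 2 rose and 0 fell: P2ry13, a receptor for ADP, by 1.55 ± 0.21 (adjusted p = 0.000199, limma), and P2ry14, a receptor for UDP-glucose, by 1.34 ± 0.18 (adjusted p = 0.000191). In tolerant against acute cells 1 was higher, the ADP receptor gene P2ry12, by 1.65 ± 0.41 (adjusted p = 0.0142). That call was lost without tolerant replicate 1 or 2 and with normexp background correction, and P2ry12 was well above background on 2 of 3 acute arrays. With the block 1 was higher and 1 lower, P2ry14.

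Among 16 other ectoenzyme genes 10 were measured. In acute against untreated cells 1 rose, Cd38, which consumes NAD, by 2.01 ± 0.52 (adjusted p = 0.0122, lost without untreated replicate 1 and with the authors' deposited values), and 1 fell, Entpd6, at -1.15 ± 0.19 (adjusted p = 0.000837). With the block 2 were higher and 4 lower. In tolerant against acute cells 1 was higher, Entpd4, a nucleoside diphosphatase of the Golgi and lysosome, by 0.65 ± 0.15 (adjusted p = 0.00837), and 6 were higher and 1 lower with the block.

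Release channels and nucleoside transporters, 9 measured of 12, divided evenly. In acute against untreated cells 2 rose: the connexin gene Gja1 by 3.92 ± 0.67 (adjusted p = 0.000917, well above background on 2 of 3 untreated arrays), and the concentrative nucleoside transporter gene Slc28a2 by 1.90 ± 0.33 (adjusted p = 0.00112). The equilibrative transporter gene Slc29a2 fell by 2.23 ± 0.22 on the log2 scale (adjusted p = 1.59e-05) and the vesicular nucleotide transporter gene Slc17a9 by 1.01 ± 0.33 (adjusted p = 0.0372). Leaving out single arrays (untreated 1 or 2, acute 2 or 3, tolerant 2, recovered 1 or 2) ended the Slc17a9 call. Median scaling and no filter on dim probes ended it too. In tolerant against acute cells Slc29a2 was higher by 1.73 ± 0.22 (adjusted p = 0.000349) and Slc29a1 was at -0.78 ± 0.19 (adjusted p = 0.0119, lost with median scaling). With the block 1 was higher and 2 lower, Gja1 at -1.43 being the added gene. Normexp background correction gave smaller differences in 5 cases: 1.83 for Gja1 and -1.07 for Slc29a2 in acute minus untreated, 0.76 for Slc29a2 in tolerant minus acute, 0.98 for P2ry13 in acute minus untreated and 0.49 for P2ry12 in tolerant minus acute.

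Intracellular purine enzymes, 18 measured of 19, gave 7 higher and 3 lower in acute against untreated cells. The salvage enzyme gene Pnp was higher by 3.12 ± 0.13 (adjusted p = 2.59e-08) and its near-identical paralog Pnp2 by 4.60 ± 0.18 (adjusted p = 1.35e-08), and their separate values are uncertain, since probes of near-identical copies were not compared here. Nt5c3, a cytosolic nucleotidase gene counted in this list although its product acts mainly on pyrimidine nucleotides, rose by 4.19 ± 0.21 (adjusted p = 7.88e-08). The 3 lower genes were Adal, Ampd2 and Ak3, at -1.15, -0.91 and -0.57.

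In tolerant against acute cells 2 of these enzyme genes were higher and 3 lower, and 6 were higher and 4 lower with the block. The adenylate kinase gene Ak4 was higher by 2.30 ± 0.41 (adjusted p = 0.00242). Nt5c3, Pnp and Pnp2 were lower, at -2.07, -1.17 and -1.13 (Pnp2 lost with the authors' deposited values).

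Downstream of the adenosine receptors, 19 of 22 genes of Gs and Gi to cyclic AMP signalling were measured, and 4 were higher and 4 lower in acute against untreated cells (6 and 6 with the block). The phosphodiesterase gene Pde4b was higher by 2.13 ± 0.22 (adjusted p = 2.11e-05), and the transcription factor genes Crem and Creb1 by 1.98 ± 0.23 and 1.31 ± 0.13 (Creb1 by 0.62 with the mean of its probes). The adenylyl cyclase gene Adcy9 was at -1.46, Gna11 at -0.90 and Prkar2a at -0.78. The Gna11 call was lost on the first scan day alone and without acute replicate 1 or untreated replicate 2 or 3.

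For these genes, tolerant against acute cells gave 2 higher and 5 lower. Gna11 was higher by 1.01, a call lost on the first scan day alone and without acute replicate 1. Prkar1a was higher by 0.44, a call lost on leaving out any of 10 arrays. The Prkar1a call was lost too with quantile scaling, no filter on dim probes, the mean of its probes and the first scan day alone. The lower genes included Crem at -1.04, Adcy3 at -0.89 (-0.49 with normexp) and Pde4a at -0.85.

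All 8 genes from P2X7 to the inflammasome were measured, and 5 rose and 0 fell in acute against untreated cells (1 fell with the block, Txnip at -0.41). Il1b, the cytokine gene whose product P2X7 releases, rose by 6.35 ± 0.39 (adjusted p = 3.43e-07), Nlrp3, the inflammasome sensor gene, by 3.69 ± 0.23 (adjusted p = 4.03e-07) and Il18 by 3.29 ± 0.22 (adjusted p = 8.12e-07). In the same comparison P2rx7 itself was lower. In tolerant against acute cells Il1b was higher by 1.66 ± 0.39 (adjusted p = 0.0104) and Il18 was at -1.10 ± 0.22 (adjusted p = 0.00505), and 1 was higher and 3 were lower with the block. With the authors' deposited values these Il1b and Il18 calls were lost, as was that of Il1b in acute against untreated cells (4.34).

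Between recovered and acute cells 1 gene of the 6 lists was called, Nlrp3, higher by 1.40 ± 0.23 (adjusted p = 0.0198, limma). It was lost on leaving out acute replicate 1 or 2 or any recovered replicate, and with the authors' deposited values. With the block 8 genes of the lists were higher and 4 lower, among 73 measured, where 11.0% of all genes were called. The list medians in acute minus untreated ran from -0.39 for the ectoenzymes to 1.26 for the inflammasome list, against 0.04 over all genes.

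**Figure D5:**
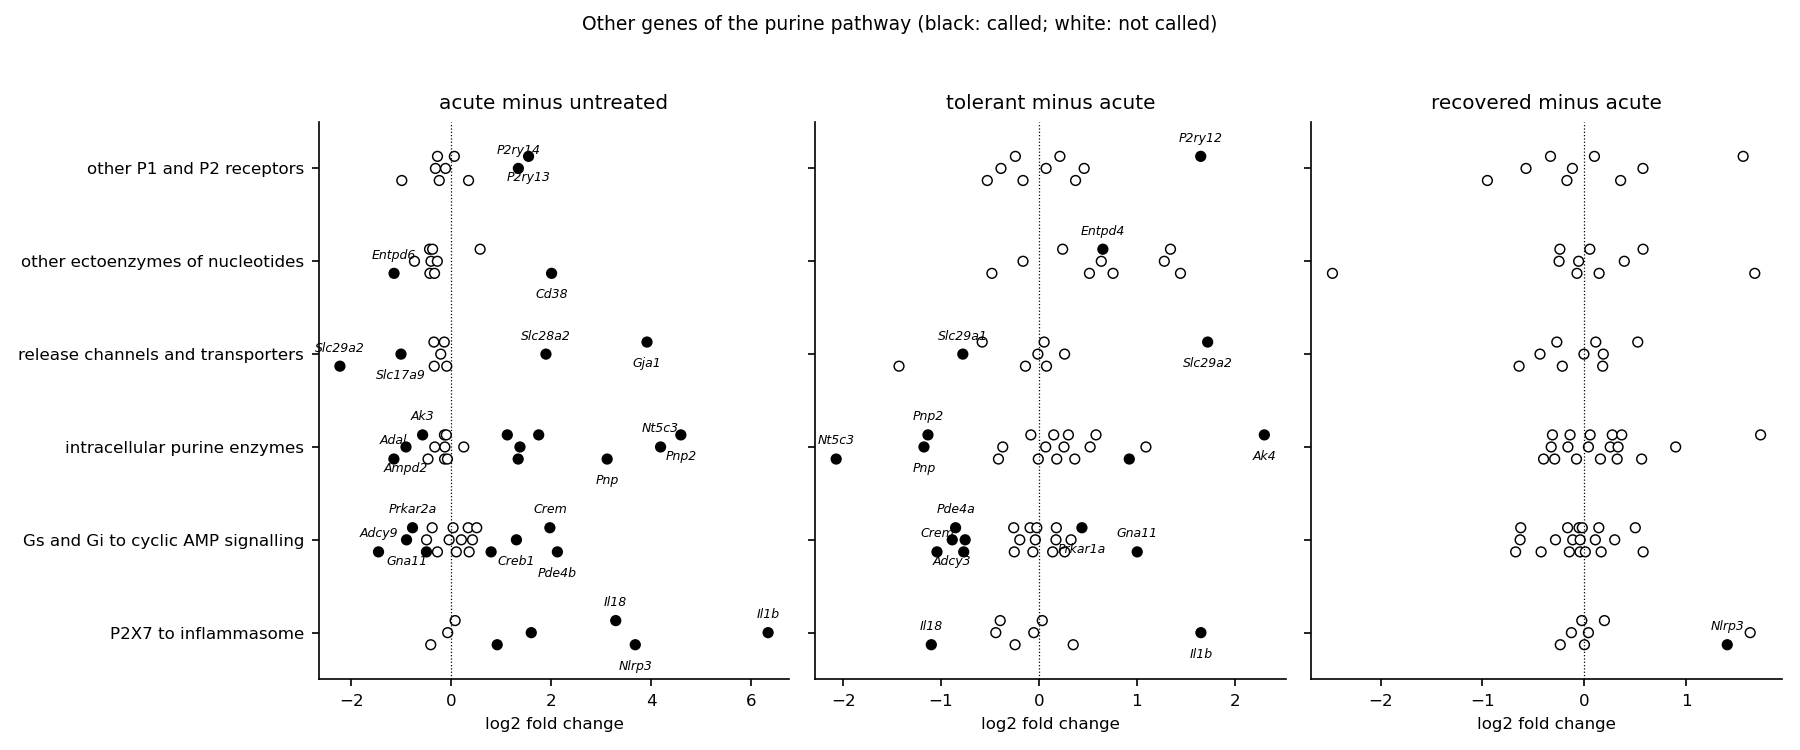
Log2 fold changes (x axis) of the measured genes in the 6 lists of the purine pathway (y axis) in acute minus untreated, tolerant minus acute and recovered minus acute; each point is a gene, black where called without the block, and some called genes carry their names. Il1b at 6.35 and Pnp2 at 4.60 lie farthest to the right in acute minus untreated, and Nlrp3 is the only black point in recovered minus acute.

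As a description, the profiles most like those of the members over the 12 arrays, among 11308 named genes, were taken by Pearson r with no test, since these arrays share groups, experiments and scaling. The highest values were r = 0.997 with Ehd1 and 0.992 with Socs3 for Adora2a, 0.967 with Lzic and 0.949 with Dtx2 for Adora2b, and 0.987 with Wdr81 and 0.979 with Nadsyn1 for P2ry6. P2rx7 was most like Tmem18 (0.976) and Spns1 (0.975), P2rx4 like Med23 (0.969) and Ube2v1 (0.952), and P2ry2 like Atp5k (0.905) and Pik3ca (0.9). For the enzymes these were Zfp217 (0.985) and Prdx3 (0.98) for Adk, Scfd2 (0.97) and Aif1 (0.966) for Ada, and Lrsam1 (0.879) and Gpr137b-ps (0.868) for Entpd1. For Adora3 they were Ggta1 (0.872) and Trib1 (0.871).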

How the data were processed

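Per the file headers, the deposited intensity of a spot had its background removed and spatial trend corrected by Feature Extraction 10.7.3.1, array by array, and probe positions are on mm9. The authors' deposited matrix holds log2 values with nearly equal medians over the arrays (the submitters' processing notes name limma, no version; background correction is not stated), and it was used as an alternative. Each of its 12 columns matched its own array best.

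From the scanner files, log2 processed signals were shifted so that each array had the same 75th percentile (7.81 to 9.15 before). Of 62976 spots, 59305 were not controls, on 55681 probes. Outlier spots (135 to 233 an array) were dropped, which removed 118 probes. Probes well above background on all 3 arrays of a group were kept (28056), and the brightest stood for its gene. The means of 4 groups over 12 arrays were fitted in limma 3.58.1 (R 4.3.3), two-sided, with Benjamini-Hochberg adjustment over 20491 genes. Arrays give no counts, so their number limits the precision. The fit was tested on simulated data. Figures used matplotlib 3.10.9.

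Same-numbered arrays deviated together (18 pairs, r 0.276 to 0.773, median 0.45). Over 36 pairs of unlike number r was -0.653 to 0.337 (median -0.368). Deviations from a group mean cancel within the group, so high r for like numbers forces low r for unlike ones, which are no separate check. The numbers were taken to pair the arrays. The submitters state independent experiments. The members, lists and tests were chosen with earlier results of these data known. Named genes outside the members were, per list and direction, up to 3 called genes with the widest difference in acute minus untreated, tolerant minus acute and recovered minus acute, and the 2 most correlated genes of each member. Probes were named by the scanner files. Some genes that this rule or the marker lists name are not reported here. The alternatives were normexp (offset 50), quantile and median scaling, the authors' matrix, no filter on dim probes, the mean of a gene's probes, a replicate block, a slide block, the first scan day alone and each array left out (12).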

Additional observations from a re-analysis of the deposited data

Results flagged for a closer look

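A second probe that the scanner files also name Adora3 belongs by its accession to Tmigd3, a gene whose span holds Adora3, and it was not used for Adora3. It gave a signal outside the members: log2 signals of 4.92, 4.39 and 4.98 in recovered cells, 3.101, 3.97 and 2.97 in tolerant cells, 4.12, 3.67 and 4.07 in acute cells and 3.36, 2.81 and 3.83 in untreated cells. The recovered arrays were the highest of all 12, and it was well above background on 2 of the 3 recovered arrays and on 0 arrays of each other group. Recovered minus untreated was 1.435 ± 0.323 (adjusted p = 0.0111, limma on all probes) and recovered minus tolerant 1.42 (adjusted p = 0.026). The probe did not pass the filter on dim probes, and the difference rests on untreated and tolerant signals that were not well above background.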

How the results depend on the processing

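Over 21 alternatives, of 1260 results for single members 1167 stayed on their side of the threshold (1145 with the same sign and 22, none called, with the other sign and a size of at most 0.39), 82 passed it only under the alternative, 11 no longer passed it and 0 reversed. The lost calls were Adora2b in recovered minus untreated (4 alternatives, among them the first scan day alone, 0.74, adjusted p = 0.0627), Adora3 in acute minus untreated (6, among them the first scan day alone, adjusted p = 0.101) and P2rx7 in tolerant minus untreated (the mean of its probes).

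The number of members called moved by over 1.5 times in the following. With the replicate block it was 7 for tolerant minus untreated, 7 for recovered minus untreated, 6 for tolerant minus acute, 5 for recovered minus tolerant and 2 for recovered minus acute. In the same order 37.7, 53.0, 44.7, 45.0 and 11.0% of all genes were called with this block. With the slide block it was 7, 6, 5 and 1 for tolerant minus untreated, tolerant minus acute, recovered minus tolerant and recovered minus acute, where 39.7, 47.2, 40.3 and 7.79% of all genes were called. The authors' deposited values gave 6, 6, 6 and 1 for the same comparisons, against 34.6, 37.5, 36.1 and 5.87%. On the first scan day alone it was 5 for tolerant minus untreated, 5 for recovered minus tolerant and 1 for recovered minus acute, against 22.4, 19.3 and 3.02%, and normexp gave 5 for tolerant minus acute, against 23.0%. The causes were not tested. Leaving out 1 array in turn gave 3 to 4 members in acute minus untreated and 3 to 5 in recovered minus untreated. In tolerant minus untreated it gave 3 to 5 (5 without acute replicate 3, against 20.8% of all genes). In tolerant minus acute it gave 2 to 4 (4 without acute replicate 1, against 17.1%). The range was 2 to 3 in recovered minus tolerant and 0 to 0 in recovered minus acute. Shares of all genes for the other left-out arrays are not given here, so these ranges are no result about the members.

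Over the other scalings the median of all genes ran from -0.10 to 0.06 in acute minus untreated, -0.13 to 0.09 in recovered minus untreated and -0.12 to 0.10 in recovered minus tolerant, against which member differences under about that size have no settled direction. Some larger differences changed sign too. With the authors' deposited values P2rx4 went from 0.25 to -0.12 in acute minus untreated and from 0.33 to -0.04 in recovered minus untreated. The share of called genes that were higher was 51.1% in acute minus untreated (37.3 to 52.5% over the scalings and the authors' values), 59% in tolerant minus untreated (40.8 to 59.2%), 52.8% in recovered minus untreated (38.9 to 58.3%), 52.3% in tolerant minus acute (51.1 to 63.1%), 51.5% in recovered minus tolerant (31.8 to 56.3%) and 70.1% in recovered minus acute (49.8 to 70.1%). Of 840 results for named genes of the lists, 795 kept their call, 45 lost it and 0 reversed. The 3 arrays of a group limit the precision.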
